A study of Macaca fascicularis with 6 samples.

Results

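FN1-high cells were the cell barcodes with at least 5 raw counts of FN1, the gene of the matrix protein fibronectin, in the corneal epithelium 3 days after injury. There were 187 of them among 2164 barcodes at day 3 and 7895 in the whole series: 89 of 1096 in replicate 1 (8.12%, exact 95% interval 6.57 to 9.9) and 98 of 1068 in replicate 2 (9.18%, 7.51 to 11.1). The samples were single-cell libraries from corneas of wild-type cynomolgus monkeys, 2 of them uninjured (day 0), 2 taken at day 1 and 2 at day 3 after a corneal injury. Droplet capture used the 10x Genomics system, and libraries were made by HIT-scISOseq, in which long reads span whole transcripts and can keep isoforms apart. The labels do not say how the injury was made, how many animals were used, or whether the samples of a day came from different animals, so p-values reflect the spread of these libraries alone, and that spread may be technical. FN1 chose the cells and is left out of all results below; its count had a median of 18 and a highest value of 106 in members of replicate 1, and a median of 11.5 and a highest value of 62 in replicate 2.

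Fibronectin is laid down on the bared surface of a corneal wound, and migrating epithelium holds on to it through integrins until the basement membrane and its hemidesmosomes are restored. Epithelial cells at a wound edge can take on features of mesenchymal cells, such as vimentin filaments, secreted matrix and contractile proteins, while they keep their keratins. Keratocytes, the fibroblasts of the corneal stroma, make type I collagen and the proteoglycans lumican and keratocan as well, so keratins and stromal markers were checked in every FN1-high cell before the comparison.

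The FN1-high cells had counts of basal keratins and low total counts. KRT14, a keratin of basal epithelium, had a lowest count of 2, a median of 41 and a highest count of 150 in members of replicate 1, and 1, 41 and 215 in replicate 2. KRT5, the partner of KRT14, had a lowest count of 2 and 3, so that 0 of 187 members lacked either keratin, whereas KRT14 was at 0 in 93 and 101 of the 1007 and 970 other barcodes. Median total counts were 2865 and 3004 in members against 4573 and 4234 in the others, and only 3 and 2 members lay above the 90th percentile of the others. Scrublet, which scores barcodes against simulated doublets, called 0 of 89 and 1 of 98 members, and 8 of 1007 and 4 of 970 others. The day 3 libraries shared 1 barcode sequence and 0 FN1-high ones.

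Stromal markers divided into genes that were higher in members and genes with few or no counts there. Of 15 keratocyte and fibroblast genes 8 had enough counts for the edgeR test described below, of which 6 were higher (COL1A1, COL1A2, COL6A2, COL6A3, FBLN1 and DCN), 1 lower (PTGDS) and 1 not past the threshold (LUM), with a median log2 change of 2.77. Over all tested genes 6.47% were higher and 6.59% lower. Among basal cells that held COL17A1 5 of 8 were higher (median 2.65), against 4.39% of all genes tested there. DCN was not among those 5 (log2 -0.07) and stood at -0.03 against other barcodes of like total count. COL1A1, a chain of type I collagen, was detected in 47 of 89 (52.8%) and 38 of 98 (38.8%) members, against 46 of 1007 (4.57%) and 36 of 970 (3.71%) others. Every COL1A1-positive member also had a count of KRT14, with a lowest KRT14 count of 3 in replicate 1 and 8 in replicate 2. KERA (keratocan) had 1 count in each replicate of the members, PDGFRB had 0, and COL3A1 and THY1, other genes of fibroblasts, had 2 each over both replicates. The others had 4 and 7 counts of KERA in sums many times larger, so its rate was not lower in members. Counts this low cannot set members apart from the others. LUM (lumican) was detected in 7 and 3 members and stood at 23.5 and 8.97 CPM, against 27.7 and 29.4 CPM in the others. The tables list 14 of the 15 genes (PDGFRA is not listed), and their summed level was 1792 and 1462 CPM in members against 674 and 666 in the others. Immune markers summed to 57 and 80.9 CPM in members against 197 and 173. The melanocyte marker MLANA had 0 counts in members, and 29 and 0 in the others. Endothelial markers summed to 46.3 and 21.8 CPM in members against 22.8 and 17.1. PECAM1 and VWF, which mark vessels, had 0 counts in members. PECAM1 had only 5 and 10 counts in the far larger sums of the others, too few for its 0 to set members apart. COL8A1, a collagen made by corneal endothelium, was higher at 20.2 and 12 against 2.31 and 1.49 CPM (log2 3.04, adjusted p = 0.00565 in edgeR). SLC4A11, a transporter of that layer, was lower. Every member had counts of KRT5 and KRT14, the epithelial markers checked, but the lowest were 1 to 3 counts, which other barcodes also had, so these counts do not settle the label for every single cell. The mesenchymal part of the label held for matrix and cytoskeletal genes. Most of the transcription factors described below had too few counts to compare. The part of stromal RNA in these sums was not tested beyond leaving out the barcodes with the most of it.

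**Figure D1:**
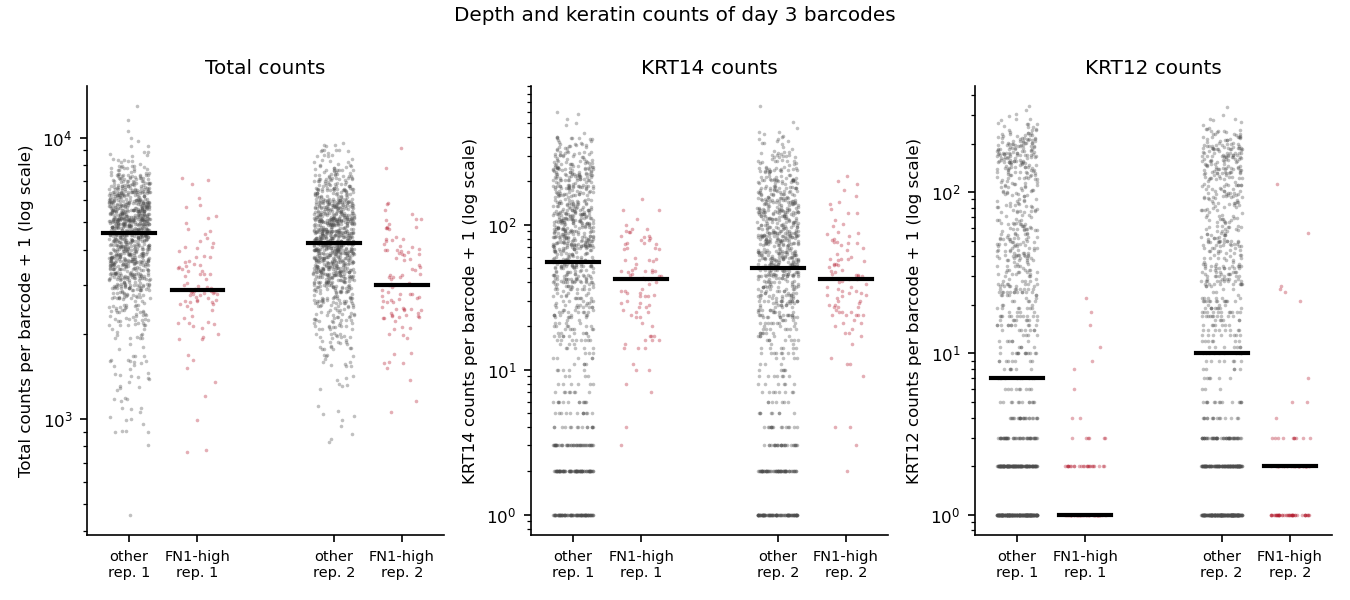
Total, KRT14 and KRT12 counts of each day 3 barcode (points, plus 1, log axes) in the other and the FN1-high cells of both replicates; black lines are medians. FN1-high cells sit lower in total count (medians 2865 and 3004 against 4573 and 4234), all lie above the KRT14 floor, and 50 and 44 of them lie on the floor of KRT12.

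Counts were summed over the FN1-high and over the other cells of each day 3 sample, since cells are not replicates, which gave 4 sums with 282859 and 323139 counts for members and 4611322 and 4261037 for the others. Levels are CPM, counts scaled to library size by TMM, given as replicate 1 and replicate 2, and changes are log2 differences with a standard error from edgeR's quasi-likelihood test with the sample as a block and Benjamini-Hochberg adjustment over all genes. Of 10236 genes tested, 1337 passed the adjusted threshold of 0.05 (13.1%), 662 higher (6.47%) and 675 lower (6.59%) in FN1-high cells. Each list count below is to be read against those shares, and the median log2 change over all tested genes was -0.01. With scaling to library totals alone that median was 0.15, and 1058 genes were higher and 570 lower, so that 65% rather than 49.5% of the calls were higher. The other cells include differentiated ones, so the comparison was repeated, after the data had been seen, within cells that held COL17A1, a hemidesmosomal collagen of basal cells: 68 and 72 members against 512 and 472 others. There 712 of 8594 genes passed (8.28%), 377 higher (4.39%) and 335 lower (3.9%). In both comparisons 642 genes passed, all in 1 direction, which is 90.2% of the second set and 48% of the first; the 2 comparisons share most of their cells. In what follows, "basal comparison" means the one within COL17A1-positive cells.

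COL1A1, FBLN2, TNC and other secreted matrix genes rose in the FN1-high cells. COL1A1 stood at 662 and 404 CPM against 11.8 and 11 in the other cells (log2 5.54, SE 0.17, adjusted p = 2.71e-07). FBLN2 (fibulin 2), which binds fibronectin and basement membrane proteins, stood at 608 and 428 against 25.9 and 27.2 CPM (log2 4.28, SE 0.16, adjusted p = 6.43e-07). TNC (tenascin C), a matrix protein of wounds, stood at 292 and 206 against 9 and 12.5 CPM (log2 4.53, SE 0.26, adjusted p = 3.90e-06). For these genes both members' sums lay far above both others, and the groups did not overlap. All 1337 genes past the threshold had the same direction in both replicates, and the naming rule required it. The separation is therefore no added support, here or for the proteases and cytoskeletal genes below. COL1A2, the second chain of type I collagen, was lower than COL1A1 at 80.6 and 114 CPM against 11.1 and 8.97 (log2 3.27), COL6A3 stood at 50.4 and 20.9 against 1.62 and 3.24 (log2 3.83) and POSTN (periostin) at 131 and 71.8 against 10.6 and 14.9 (log2 2.97). Without replicate 1 COL6A3 stood at log2 2.37 and POSTN at 2.19. These and all later values without 1 replicate are plain ratios of the remaining sums, with 1 CPM added to each, and not fits. The added CPM makes changes of genes at a few CPM smaller, so they cannot be set directly against the fitted values.

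Of 35 secreted matrix genes 30 were tested, of which 16 were higher, 2 lower and 12 not past the threshold, with a median log2 change of 1.19. Higher members included the basement membrane collagens COL4A1 (33.6 and 41.9 against 7.62 and 5.48 CPM) and COL18A1 (225 and 141 against 35.3 and 27.9 CPM), the anchoring fibril collagen COL7A1 (816 and 640.0 against 233 and 213 CPM) and COL5A1, which starts collagen fibrils (40.3 and 23.9 against 4.62 and 3.49 CPM). SERPINH1, the chaperone of procollagen, followed at 121 and 114 against 36.9 and 32.9 CPM, and LOXL2, which cross-links collagen, at 50.4 and 56.8 against 7.39 and 6.73. TGFBI, an adhesion protein of cornea, was lower at 1401 and 1346 against 2418 and 2321 CPM, and ECM1 fell by 0.87 on the log2 scale. In the basal comparison 14 of 30 were higher and 1 lower, with COL1A1 at log2 5.16, FBLN2 at 3.60 and TNC at 3.77. When barcodes with 3 or more counts over COL1A1, COL1A2, COL3A1, LUM and KERA were left out, which leaves 60 and 74 members, COL1A1 stood at log2 3.36, FBLN2 at 3.52, TNC at 3.65 and POSTN at 2.32, all still past the threshold, while COL1A2 no longer passed (log2 0.51, edgeR adjusted p = 0.775). That filter uses COL1A1 and COL1A2 themselves. Against as many other barcodes of like total count the values were 4.40 for COL1A1, 3.42 for FBLN2 and 3.22 for TNC.

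Matrix metalloproteinases were among the genes that rose. MMP13 (collagenase 3) stood at 138 and 182 CPM against 7.85 and 6.98 (log2 4.42, SE 0.26, adjusted p = 5.32e-06 in edgeR). MMP2 (gelatinase A) stood at 212 and 167 against 9 and 11.5 CPM (log2 4.20, SE 0.26), MMP9 (gelatinase B) at 104 and 86.7 against 16.4 and 14.9 (log2 2.60) and MMP1 (collagenase 1) at 669 and 544 against 154 and 191 (log2 1.81). MMP14, the membrane-bound protease that activates MMP2, was at 158 and 144 against 53.8 and 62 CPM. For each of these proteases both members' sums lay above both others. Of 25 proteases and inhibitors 23 were tested, 16 higher, 2 lower and 5 not past the threshold (median log2 0.93). The inhibitor TIMP1 rose less (151 and 182 against 115 and 104 CPM, log2 0.62), and SERPINB2, a serine protease inhibitor, was lower at 73.9 and 111 against 355 and 348. In the basal comparison 8 of 21 were higher and 1 lower, with MMP13 at log2 3.75, MMP2 at 3.49 and MMP9 at 2.19; against other barcodes of like total count MMP13 stood at 2.70, MMP2 at 2.31 and MMP9 at 4.17.

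Several integrin subunits that bind fibronectin rose. ITGB6, the epithelial subunit of the integrin that binds fibronectin and latent TGF-beta, stood at 366 and 302 CPM against 77.3 and 86.9 (log2 2.02, SE 0.15, adjusted p = 1.93e-05 in edgeR). Its partner ITGAV stood at 363 and 413 against 109 and 127 CPM (log2 1.72, SE 0.11, adjusted p = 8.79e-06). ITGA5, the subunit of the classical fibronectin receptor, was at 57.1 and 59.8 against 19.9 and 14.2 CPM (log2 1.79), and its partner ITGB1 at 669 and 699.8 against 215 and 238 (log2 1.60). In the list of fibronectin receptors and assembly genes, 11 of 18 tested were higher, 1 lower and 6 not past the threshold (median log2 0.85). Transglutaminase 2 (TGM2), which cross-links fibronectin, was higher at 467 and 487 against 201 and 188 CPM, and the proteoglycan SDC1 was lower at 239 and 359 against 711 and 731. In the basal comparison 7 of 18 were higher, among them ITGB6 (log2 1.41), ITGAV (1.22) and ITGB1 (1.02), while ITGA5 (log2 1.05, edgeR adjusted p = 0.08) did not pass.

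Hemidesmosome genes, which anchor basal cells to the basement membrane, were mostly higher. ITGB4 stood at 1011 and 1014 CPM against 327 and 341 (log2 1.60, SE 0.08). Its replicates lay close together. All 9 hemidesmosome genes were tested, with 7 higher and 0 lower; LAMB3 and PLEC did not pass. Among COL17A1-positive cells 3 of 9 were higher. ITGB4 was then at log2 1.01, while DST, the keratin linker of the hemidesmosome, went from log2 0.96 to 0.35 (edgeR adjusted p = 0.103).

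Several genes of the contractile cytoskeleton rose. TPM1 (tropomyosin 1), which stabilises actin filaments, stood at 1915 and 1833 CPM against 361 and 347 (log2 2.40, SE 0.08, adjusted p = 2.84e-07 in edgeR). TAGLN (transgelin), an actin-binding protein of smooth muscle and myofibroblasts, stood at 783 and 625 against 94 and 98.4 CPM (log2 2.87, SE 0.12). MYL9, the myosin light chain of contractile cells, was at 114 and 92.7 against 15.2 and 11.7 CPM, PALLD, a scaffold of actin bundles, at 379.6 and 389 against 72.3 and 71.5, and CALD1 (caldesmon) at 621 and 625 against 169 and 168. The members' sums exceeded the others' for each of these in both replicates. In the list of actin genes and YAP targets 18 of 30 tested were higher, 4 lower and 8 not past the threshold (median log2 0.54). YAP targets among them were CCN1 (242 and 173 against 43.4 and 39.6 CPM), CCN2 (265 and 89.7 against 41.8 and 29.1 CPM) and AXL (53.7 and 26.9 against 6.23 and 9.72 CPM). EZR (ezrin), which links actin to the apical membrane, was lower at 447 and 559 against 789.8 and 796 CPM. ACTA2, the smooth muscle actin of myofibroblasts, had 3 counts in members and 1 in the others, too few to test. In the basal comparison 14 of 30 were higher, with TPM1 at log2 1.93 and TAGLN at 2.10.

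Vimentin and the other mesenchymal genes differed widely among themselves. VIM stood at 1559 and 1038 CPM against 545 and 524 (log2 1.26, SE 0.12, adjusted p = 1.02e-04 in edgeR). It was detected in 84.3% and 81.6% of members and also in 43.9% and 42.7% of the others. In the basal comparison VIM was at 1924 and 1222 against 1043 and 1033 CPM (log2 0.57, SE 0.14, edgeR adjusted p = 0.0165), and against barcodes of like total count at log2 0.63. Of 26 mesenchymal transition genes 25 are listed and 18 were tested: 14 were higher, 2 lower and 2 not past the threshold, with a median log2 change of 1.91. Among COL17A1-positive cells the counts were 11, 2 and 2 of 15 (median 1.28). The higher group held matrix and cytoskeletal genes, together with FAP, a surface protease of activated fibroblasts, which had 12 counts in members and 3 in the others, a ratio of 52.8 (exact interval 14.3 to 292). The fitted log2 change of FAP, which depends on the prior count at such counts, was 5.55 with both replicates. As a ratio of single sums with 1 CPM added it was 3.11 without replicate 1 and 4.50 without replicate 2. S100A4 was lower at 8942 and 10775 against 17180 and 17517 CPM.

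Of the transcription factors that drive mesenchymal transition, SNAI2 was higher, and most others had too few counts to compare. SNAI2 (Slug) stood at 218 and 278 CPM against 117 and 109 (log2 1.14, SE 0.15, adjusted p = 8.84e-04 in edgeR). SNAI1 (Snail) was at 13.4 and 2.99 against 4.62 and 5.73 CPM (log2 0.61, edgeR adjusted p = 0.669). ZEB1, ZEB2, TWIST2 and PRRX1 had 0 counts in members and 2 each in the others. Since the sums of the others were many times larger, these counts show no difference in either direction. CDH2 (N-cadherin), which is not a transcription factor, had 5 counts in members and 1 in the others, too few to test. Members held 282859 and 323139 counts in all against 4611322 and 4261037 in the others, so its rate was higher in members. At this depth, 3 counts over both replicates were the limit below which presence could not be judged. CDH1 (E-cadherin) stood at 20.2 and 56.8 CPM against 54.3 and 55.3 (log2 -0.48, edgeR adjusted p = 0.419), and the groups overlapped. Its log2 change was 0.04 without replicate 1 and -1.39 without replicate 2, so its direction rested on 1 library.

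TGF-beta pathway genes, which include ligands, receptors and targets, were mostly higher. INHBA, a subunit of activin, stood at 26.9 and 17.9 CPM against 2.31 and 1.74 (log2 3.43, SE 0.49, adjusted p = 0.0016 in edgeR). The ligand TGFB3 was at 23.5 and 8.97 against 2.54 and 2.74 CPM (log2 2.58). Without replicate 1 INHBA stood at log2 2.79 and TGFB3 at 1.41, as ratios with 1 CPM added, which lowers them at these levels. In contrast, TGFB1 (77.3 and 102 against 57.7 and 59 CPM) and TGFB2 (13.4 and 23.9 against 11.1 and 9.96 CPM) did not pass. LTBP3, which stores latent TGF-beta in matrix, was at 70.5 and 62.8 against 7.39 and 8.72 CPM, and the receptor TGFBR2 at 128 and 98.7 against 33.9 and 24.4. The target PMEPA1 stood at 205 and 242 against 53.1 and 47.8 CPM, the feedback inhibitor SMAD7 at 121 and 126 against 62.1 and 67, and CDKN2B, which halts the cell cycle, at 615 and 428 against 223 and 206. Of 21 tested 12 were higher, 1 lower and 8 not past the threshold (median log2 0.93), and in the basal comparison 7 of 20 were higher and 0 lower. FST (follistatin), which binds activin, stood at 252 and 119.6 against 21.9 and 17.7 CPM (log2 3.20).

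PTN, IGF2, IGFBP5, APOE, MFAP2 and DPYSL3 were among the named genes with the highest changes at an average log2 CPM of at least 5. PTN (pleiotrophin), a heparin-binding growth factor, stood at 994 and 739 CPM against 50.1 and 62 (log2 3.94, SE 0.16, adjusted p = 8.16e-07 in edgeR). IGF2, an insulin-like growth factor, stood at 806 and 729.7 against 83.1 and 77.5 CPM (log2 3.26, SE 0.10, adjusted p = 2.71e-07). IGFBP5, which binds such factors, was at 447 and 359 against 63.3 and 78.5 CPM (log2 2.50). Replicates of each population lay close to each other for IGF2 and IGFBP5. APOE, a lipid carrier, stood at 870.1 and 685 against 82.2 and 92.9 CPM (log2 3.14), MFAP2, a microfibril protein, at 232 and 161 against 18 and 20.2 (log2 3.35), and DPYSL3, a cytoskeletal protein of neurons and migrating cells, at 208 and 156 against 31.9 and 25.9 (log2 2.65). In the basal comparison PTN stood at log2 3.16, IGF2 at 3.36, APOE at 2.79 and IGFBP5 at 2.15.

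**Figure D2:**
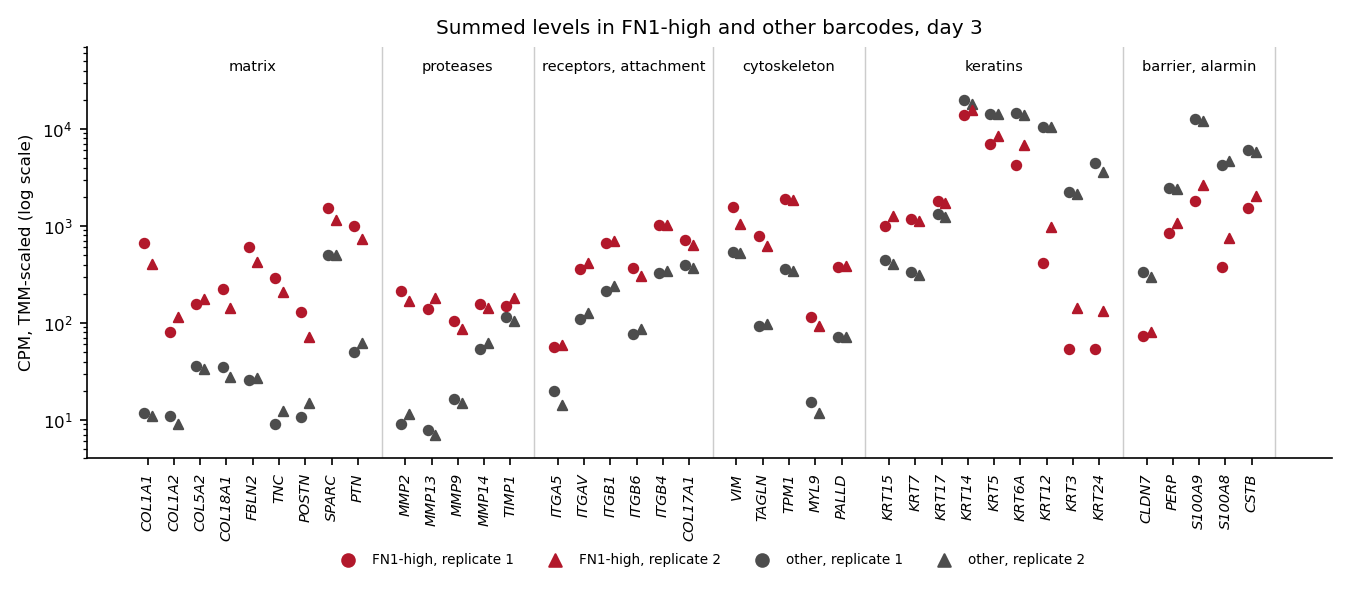
Levels (CPM scaled by TMM, log axis) of genes of matrix, proteases, receptors, cytoskeleton, keratins and barrier in the summed FN1-high (red) and other (grey) cells of day 3; circles are replicate 1 and triangles replicate 2. Matrix, protease and cytoskeletal genes lie higher in both red sums (COL1A1 662 and 404 against 11.8 and 11), corneal keratins and alarmins lower, and KRT14 lies close in both.

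Corneal differentiation was low in FN1-high cells. KRT12, the keratin that marks corneal epithelium, stood at 417 and 984 CPM against 10412 and 10584 (log2 -3.96, SE 0.22, adjusted p = 3.41e-06 in edgeR). Its partner KRT3 stood at 53.7 and 141 against 2247 and 2159 CPM (log2 -4.48, SE 0.21) and KRT24 at 53.7 and 132 against 4407 and 3623 (log2 -5.40, SE 0.22). Replicate 2 was above replicate 1 in members for each of these keratins. Without the barcodes called as doublets, 1 of them a member, KRT24 was at log2 -6.44 and KRT3 at -5.34; without replicate 2 KRT24 was at -6.33, KRT3 at -5.36 and KRT12 at -4.64, and without replicate 1 KRT24 was at -4.77. Of 14 corneal differentiation genes tested 11 were lower, 2 higher and 1 not past the threshold, with a median log2 change of -2.28, and 10 of 14 were lower within COL17A1-positive cells, where KRT12 stood at log2 -3.80. Lower members included AQP5, a water channel (168 and 92.7 against 887 and 713 CPM), ALDH1A1 (326 and 398 against 1361 and 1373 CPM) and ALDH3A1 (3537 and 2976 against 8314 and 7759 CPM), enzymes that detoxify aldehydes in the cornea. CLU and CRYAB, which encode chaperones, were higher (log2 0.46 and 0.56).

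Genes of superficial cells were mostly lower or nearly absent. KRT78 had 3 counts in members, a ratio of 38.1 in favour of the others (exact interval 13 to 185), and TGM1, the cross-linking enzyme of the cornified envelope, had 1 count (24.6, 4.39 to 975). KRTDAP, a gene of stratified differentiation, and OTOP2, a proton channel, had 0 counts in members and were at least 8.38-fold and at least 7.52-fold lower, taken against 3 counts over both replicates. LY6G6C had 1 count against 2097. CSTB, a protease inhibitor, stood at 1539 and 2019 CPM against 6019 and 5761. Of 13 tested genes of the superficial list 9 were lower and 0 higher (median log2 -1.60), and 5 of 12 were lower in the basal comparison.

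Basal and limbal genes were mostly higher, apart from the main basal keratins. KRT15, a keratin of the limbus and basal layer, stood at 991 and 1253 CPM against 449 and 409.8 (log2 1.39, SE 0.11, adjusted p = 3.62e-05 in edgeR). CXCL14, a chemokine of epithelia, was at 2392 and 2386 against 1224 and 1263 CPM, CAV1 (caveolin) at 134 and 108 against 40.6 and 39.1, and KRT19 at 6389 and 6005 against 3508 and 3360. TP63, the transcription factor of stratified basal cells, was at 128 and 153 against 111 and 118 CPM (edgeR adjusted p = 0.256). KRT5 was lower at 6950 and 8541 against 14178 and 14173 CPM (log2 -0.88, SE 0.08). KRT14 was lower at 13776 and 15551 against 19787 and 18031 CPM (log2 -0.37, SE 0.08, edgeR adjusted p = 0.0154); this call was lost with scaling to totals alone (0.138), with DESeq2 (0.349) and against barcodes of like total count (0.113). In the list 12 of 16 tested were higher, 2 lower and 2 not past the threshold (median log2 0.84), and in the basal comparison 8 were higher and 2 lower. GPHA2 and PENK, genes of limbal cells, had 0 counts in members but too few counts in all to be tested, so no difference from the other cells was shown.

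KRT7, a keratin of simple and conjunctival epithelia, was higher, and so was KRT19 of the same list (log2 0.85), while the remaining tested genes of that list were lower. KRT7 stood at 1166 and 1121 CPM against 339 and 311 (log2 1.82, SE 0.08, adjusted p = 9.58e-07 in edgeR). KRT4, a keratin of conjunctiva, stood at 124 and 132 against 854 and 1045 CPM (log2 -2.89), and 4 of 6 tested genes of the conjunctival list were lower, the others being AGR2, MUC1 and S100A4. A further 6 genes of that list, MUC5AC and KRT13 among them, are not listed in the tables. Within COL17A1-positive cells KRT7 stood at log2 2.00, and KRT4 no longer passed (log2 -0.92, edgeR adjusted p = 0.316).

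Most junction genes and part of the epithelial identity genes were lower. CLDN7, a claudin of tight junctions, stood at 73.9 and 80.7 CPM against 334 and 299 (log2 -2.02, SE 0.15, adjusted p = 2.83e-05 in edgeR). PKP3, a desmosomal plaque protein, was at 148 and 129 against 379 and 355 CPM and DSG3, a desmosomal cadherin, at 269 and 439.6 against 627 and 646. DSG2, the cadherin of simple epithelia, was the exception at 121 and 114 against 34.9 and 39.1 CPM (log2 1.66). Of 16 tested desmosome and tight junction genes 12 were lower, 1 higher and 3 not past the threshold (median log2 -0.88), and 9 were lower in the basal comparison. Among 17 tested genes of epithelial identity 10 were lower, 0 higher and 7 not past the threshold (median log2 -0.88), and 5 were lower with DESeq2. They included PERP, a desmosomal membrane protein (847 and 1077 against 2458 and 2377 CPM), ELF3, a transcription factor of epithelial differentiation (289 and 254 against 659.6 and 623 CPM), and PAX6, which specifies the eye (232 and 176 against 306 and 292 CPM). The splicing regulators ESRP1 (53.7 and 77.8 against 102 and 104 CPM) and ESRP2 (13.4 and 17.9 against 39.5 and 38.1 CPM) did not pass, and GRHL2 stood at 40.3 and 44.9 against 40.6 and 41.9.

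Alarmins and wound keratins were mostly lower in FN1-high cells than in the other cells of the same wound. S100A9, which with S100A8 forms antimicrobial calprotectin, stood at 1814 and 2668 CPM against 12708 and 12169 (log2 -2.49, SE 0.13, adjusted p = 2.37e-06 in edgeR). Its partner S100A8 stood at 373 and 757 against 4265 and 4695 CPM (log2 -3.02). KRT6A was at 4233 and 6780 against 14531 and 13921 CPM and KRT16 at 1354 and 3044 against 5862 and 5099, whereas KRT17 was higher at 1787 and 1743 against 1337 and 1247; KRT6A has near-identical copies that are not listed, so its reads may be shared. Of 6 tested genes 5 were lower and 1 higher, in both comparisons. S100A9 was at log2 -1.53 in the basal comparison and -1.46 against barcodes of like total count, while PI3, the elastase inhibitor elafin, went from -2.39 to -0.71 in the latter (edgeR adjusted p = 0.182).

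Most inflammatory, EGF and oxidative stress genes did not pass, and of those that did all but ICAM1 were lower. PTGS2 (cyclooxygenase 2) stood at 339 and 356 CPM against 1419 and 1378 (log2 -2.01, SE 0.09, adjusted p = 1.61e-06 in edgeR) and CXCL1, a neutrophil chemokine, at 6.72 and 20.9 against 71.8 and 62.5 (log2 -2.23, and -3.24 without replicate 2 or -1.53 without replicate 1). ICAM1, an adhesion receptor for leukocytes, was higher at 70.5 and 47.8 against 22.9 and 20.4 CPM. Of 17 tested inflammatory genes 1 was higher, 4 lower and 12 not past the threshold. In the EGF family 2 of 11 were lower, the ligand HBEGF (33.6 and 62.8 against 134 and 121 CPM) and the receptor ERBB3 (37 and 47.8 against 90.3 and 90.2 CPM), and 0 of 10 passed in the basal comparison. Of 12 tested NRF2 targets 4 were lower and 0 higher, among them HMOX1 (heme oxygenase 1), at 26.9 and 17.9 against 60.0 and 54.8 CPM.

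Proliferation, translation and secretion differed less. Of 27 tested cell cycle genes 1 was higher (STMN1, 158 and 111 against 64.6 and 66.3 CPM), 1 lower (CCND3, 3 counts in members) and 25 did not pass. The share of cells with a count of MKI67 or TOP2A was 2.25% and 4.08% in members against 7.25% and 8.45% in the deeper others. Of 22 secretory pathway and endoplasmic reticulum stress genes 2 were higher, SERPINH1 and ATF4, and 20 did not pass. Ribosomal protein genes were higher in 9 of 21 cases with a median log2 change of 0.21; with DESeq2 0 of 21 passed, and in the basal comparison 2. Of 9 mitochondrially encoded genes 0 passed. Among immediate early genes 5 of 17 were higher and 1 lower, with EGR3 at 97.4 and 89.7 against 17.3 and 26.2 CPM. For glycolysis and hypoxia the counts were 5 higher and 2 lower of 16, and for p53 targets 1 higher and 1 lower of 15; hexokinases HK1 (33.6 and 29.9 against 71.1 and 79.2 CPM) and HK2 were lower and the lactate transporter SLC16A3 was higher (104 and 77.8 against 48.5 and 45.6 CPM).

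**Figure D3:**
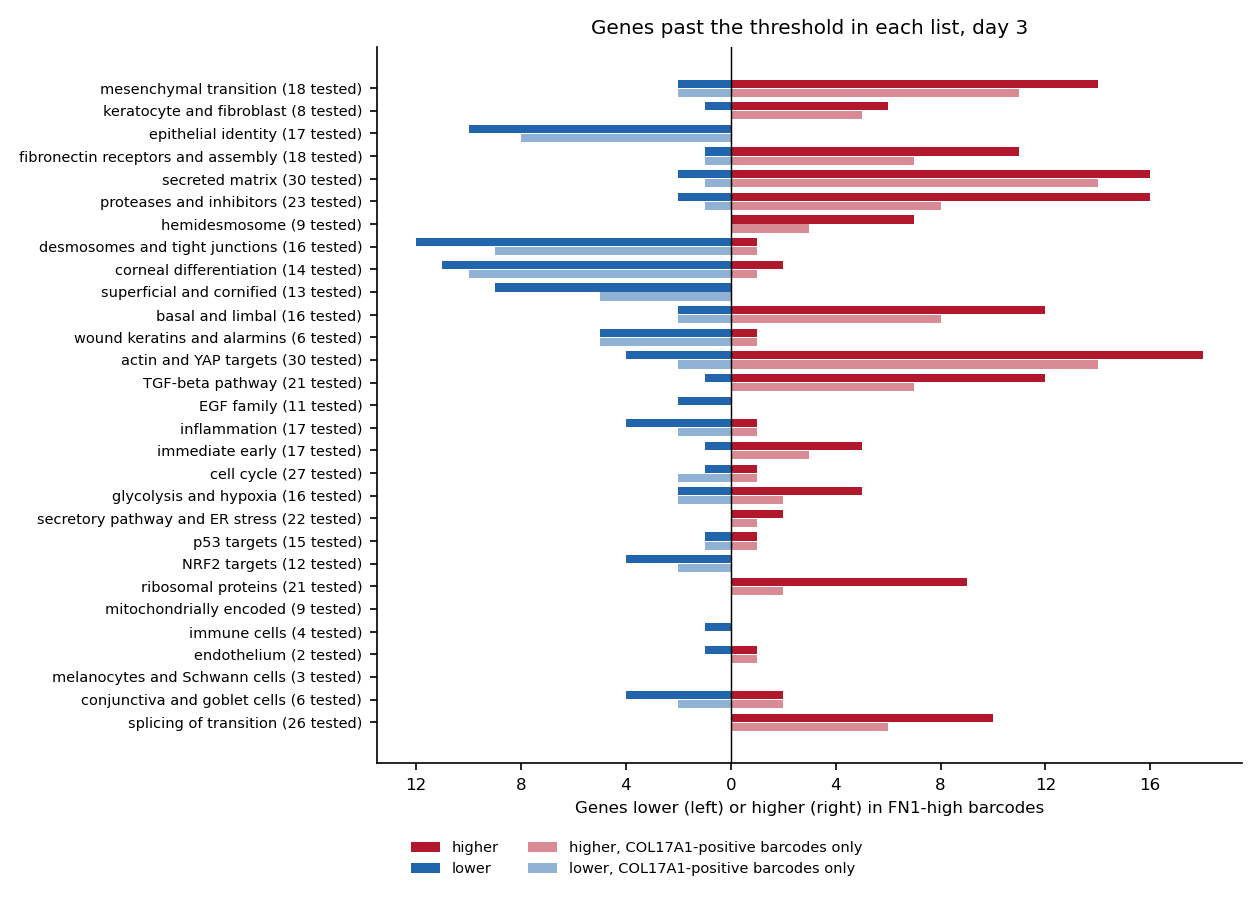
Number of genes per list past the adjusted threshold, higher to the right and lower to the left in FN1-high cells; dark bars compare with all other day 3 cells and pale bars within COL17A1-positive cells. The background is 6.47% higher and 6.59% lower of all tested genes; matrix, protease, receptor and actin lists lie to the right, and junction and corneal differentiation lists (11 of 14 lower) to the left.

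Levels were graded with the FN1 count of the cells. This is a description without a test, since FN1 chose the groups, and values in this paragraph are CPM scaled to totals alone. COL1A1 stood at 7.34, 33.3, 104, 138 and 1367 CPM in replicate 1 for cells with 0, 1 to 4, 5 to 9, 10 to 19 and 20 or more FN1 counts. In replicate 2 the same groups held 7.38, 28.3, 114, 519 and 985 CPM. COL1A1 was thus highest in the cells richest in FN1, of which there were 43 and 28. PTN went the same way, with 28.9, 156, 555, 887 and 1451 CPM in replicate 1. VIM took another course, with 395, 1211, 2380, 1301 and 1321 CPM in replicate 1 and 395, 1099, 1005, 1101 and 1198 CPM in replicate 2. It was thus higher in every group with FN1 than in cells without, but its highest group differed between the replicates. KRT12 stood at 10679 and 10729 CPM without FN1 and at 137 and 173 CPM at 20 or more, and S100A9 at 13042 and 12104 against 1306 and 825 CPM. KRT15 was 407 and 379.5 CPM without FN1 and 1031 and 1810 CPM at 20 or more, with no order between 5 and 20 counts shared by the replicates.

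Cells just outside and just inside the threshold had overlapping values for most of the genes grouped by FN1 count, but not for all. Cells with exactly 4 FN1 counts, 14 and 15 in number, held COL1A1 at 56.6 and 96.2 CPM, VIM at 1377 and 942 CPM and KRT12 at 1339 and 827 CPM. Those with exactly 5, 6 and 14 in number, held COL1A1 at 99.1 and 35.3 CPM, VIM at 1438 and 1236 CPM and KRT12 at 942 and 2366 CPM. For all of these genes the replicates of 1 side overlapped those of the other. There was no overlap for KRT15 (490.3 and 615 CPM with 4 counts, 1140 and 1254 with 5) or COL17A1 (434 and 442, then 694 and 600.3). The same was true of ITGB6 (94.3 and 269, then 545 and 283) and S100A9 (5487 and 5019, then 1785 and 4697). These groups held only 6 to 15 cells in each replicate, and no test was made. With so few values per side some genes can separate by chance. The separation of these genes therefore does not show a step at the threshold. With at least 3 FN1 counts 11.7% and 12.4% of cells were members, and with at least 10 counts 5.75% and 4.96%.

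**Figure D4:**
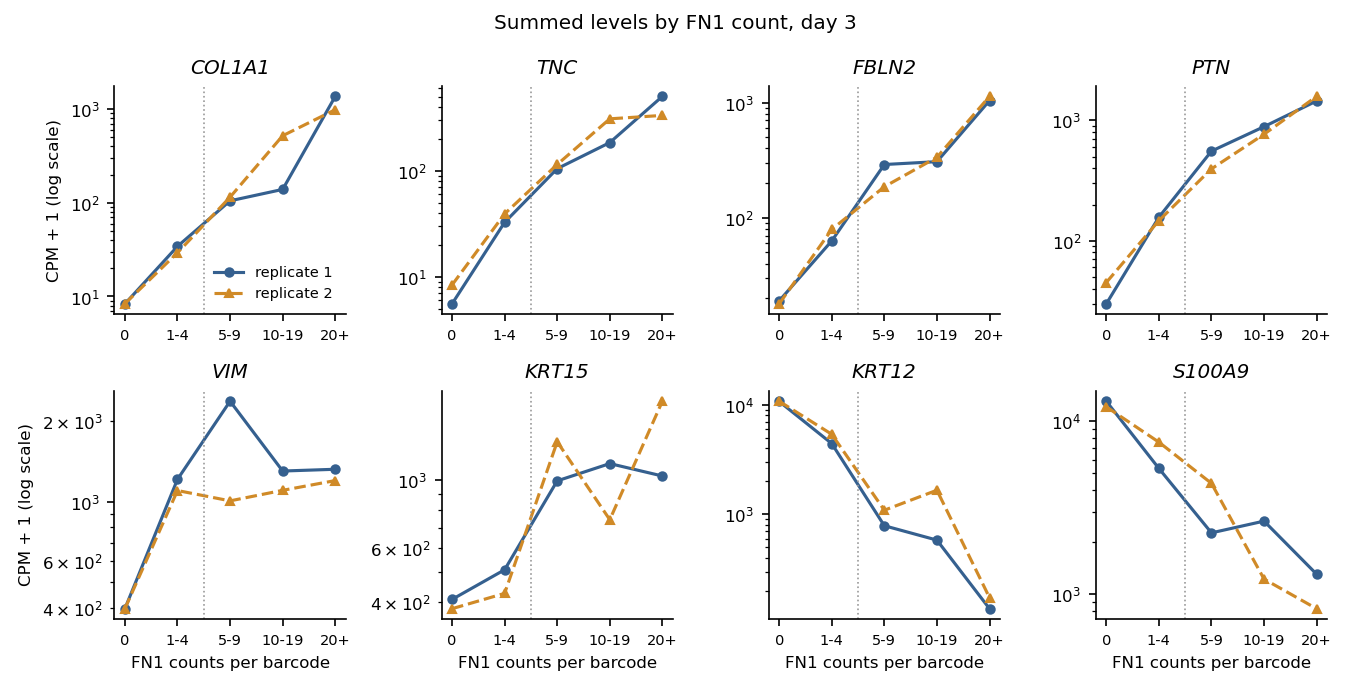
Summed levels (CPM plus 1, log axes, scaled to totals) of 8 genes in day 3 cells grouped by their FN1 count, for replicate 1 (circles, solid) and replicate 2 (triangles, dashed); the dotted line is the threshold of 5 counts. COL1A1, TNC, FBLN2 and PTN are highest in the top group (COL1A1 1367 and 985), VIM is higher at 1 to 4 counts than at 0 and highest at 5 to 9 counts in replicate 1 (2380) and at 20 or more in replicate 2 (1198), and KRT12 and S100A9 are lowest in the top group.

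Among the members, those with a COL1A1 count carried more of the other matrix genes. The 47 and 38 COL1A1-positive members had a median FN1 count of 30.0 and 21, and the 42 and 60 without COL1A1 had 11.5 and 7. TNC stood at 546 and 515 CPM in the former and at 93.9 and 87.7 CPM in the latter, FBLN2 at 1061 and 977 against 262 and 219, and PTN at 1659 and 1754 against 496 and 351. S100A9 stood at 351 and 231 CPM against 3308 and 3817. KRT14 was at 15507 and 14454 CPM with COL1A1 and at 13593 and 16776 without, and VIM at 1637 and 1229 against 1644 and 1009, so these genes did not follow the division in both replicates. Members without COL1A1 still held TNC well above the 9 and 12.5 CPM of the other cells. COL1A1 was chosen for this division after its values were seen, and no test was made.

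Differences in detection held when every cell was thinned to 2000 counts, which removed the difference in depth and left out 11 members in each replicate and 53 and 50 of the others. COL1A1 was then detected in 46.2% (exact interval 34.8 to 57.8) and 31% (21.5 to 41.9) of members against 2.31% (1.45 to 3.47) and 2.28% (1.42 to 3.47) of the others. Superficial cells with KRT78, which are part of the others and were taken to lack the gene, gave 2.94% and 2.52%. The share in the others was thus like that in KRT78-positive cells, and the share in members was higher. The level of free RNA was not measured, and its part in these shares was not tested. TNC was detected in 30.8% and 28.7% of members against 2.2% and 2.39% of the others, and in 0% and 2.52% of the KRT78-positive cells. VIM was detected in 80.8% and 75.9% of members, 35.1% and 32.7% of the others and 9.56% and 14.3% of the KRT78-positive cells. For VIM the others therefore lay above the KRT78-positive cells. KRT15 was detected in 69.2% and 64.4% of members against 25.2% and 23.4% of the others, and KRT12 in 32.1% and 41.4% against 66.8% and 66.3%. Intervals cover counting error only.

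Cells with 5 FN1 counts were found at day 3 alone. The uninjured samples had 0 of 1565 and 0 of 1417 such cells, which allows shares of up to 0.192% and 0.212%, and the day 1 samples 0 of 1482 and 0 of 1267, which allows up to 0.202% and 0.237%. FN1 had at most 2 counts in any of these 4 samples and is not listed in the table of uninjured replicate 2, where it was taken as 0. No comparison of FN1-high cells between days was therefore possible, and their levels are set beside those of all cells of the other days as values scaled to totals.

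Some genes of the members were as good as absent on the other days, while others had been present before injury. COL1A1 stood at 3.31 and 1.46 CPM in uninjured samples and 0.812 and 0.804 CPM at day 1, against 696 and 418 CPM in the members on this scale. MMP13 and MMP2 had no counts on the other days, and TNC stood at 0 CPM in uninjured samples and 4.67 and 1.61 CPM at day 1. VIM was at 8.74 and 8.74 CPM when uninjured and 13.2 and 25.7 CPM at day 1, but at 512 and 494 CPM in the other cells of day 3, so the gene was high in both day 3 populations. KRT7 was at 6.38 and 7.28 CPM, then 49.1 and 53 CPM, 318 and 293 CPM in other day 3 cells and 1227 and 1160 CPM in members. IGF2 differed in pattern, with 463 and 421 CPM when uninjured, 302 and 294 CPM at day 1 and 78.1 and 73 CPM in the other cells of day 3, against 848 and 755 CPM in members. KRT14 was at 1514 and 1322 CPM when uninjured and at 14498 and 16092 CPM in members, near the 18586 and 16986 CPM of the other day 3 cells. KRT12 was at 13962 and 14296 CPM when uninjured and at 438 and 1018 CPM in members. DCN (decorin), a stromal proteoglycan, was at 640.0 and 497 CPM in uninjured samples, 186 and 179 CPM at day 1, 592 and 593 CPM in other day 3 cells and 841 and 829 CPM in members.

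**Figure D5:**
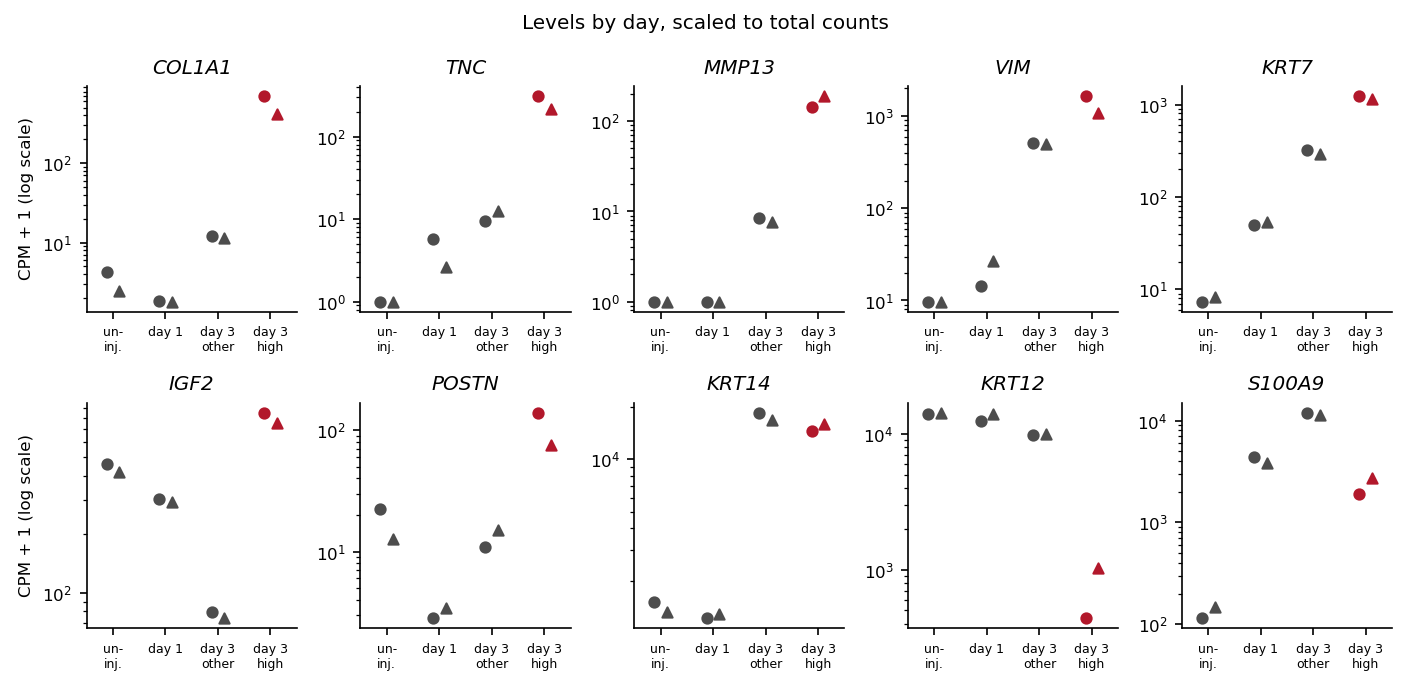
Levels (CPM plus 1, log axes, scaled to totals) of 10 genes in all cells of the uninjured and day 1 samples, in the other cells of day 3 (grey) and in the FN1-high cells of day 3 (red); circles are replicate 1 and triangles replicate 2. VIM, KRT7 and KRT14 are raised in both day 3 populations, COL1A1, TNC and MMP13 chiefly in the FN1-high cells, and IGF2 is lowest in the other cells of day 3 (78.1 and 73).

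Isoform tables held 71 and 81 of the members and 630 and 598 of the other cells. FN1 has 0 isoforms there. Where a gene had listed isoforms the summed isoform counts gave levels of the same order: COL1A1 stood at 984 and 560.3 CPM of isoform counts in members against 12.5 and 15.5, TNC at 393 and 258 against 10.0 and 11.6, and KRT12 at 592 and 704 against 10198 and 10424. Of 1282 isoforms tested for their share within the gene by edgeR's diffSpliceDGE, 1 passed (0.078%), and 10 had an unadjusted p under 0.05 within the gene. It was transcript ENSMFAT00000004721 of the tubulin TUBA1A, with 33.8% and 39.8% of the gene's counts in members against 13.8% and 14.1% (adjusted p = 0.0418); tubulin genes are near-identical, so the assignment is uncertain, and 0 passed with at least 20 counts per isoform. Genes whose splicing is known to differ between epithelial and mesenchymal cells did not pass. On simulated counts this test recovered only 43.3% of isoform changes of log2 2, so shifts of that size could be missed. Those changes were placed in isoforms with higher counts, and recovery at low counts was not measured. The CD44 transcript ENSMFAT00000032907 took 46.5% and 49.5% against 45.1% and 45.3%, the ITGA6 transcript ENSMFAT00000012369 40.5% and 37.1% against 40.8% and 41.5%, and the TPM1 transcript ENSMFAT00000066101 61.5% and 68.2% against 66.8% and 66.2%. The ESRP1 and PTBP1 transcripts did not pass either. In the others of replicate 1 the PTBP1 transcripts had near-equal shares (33.9%, 33.6% and 32.5%), as did those of ESRP1 (32.5%, 34.4% and 33.1%). Whether reads told these transcripts apart was not tested, so their shares cannot show or exclude a switch. The rise of TPM1 was seen in its total and was not detectable in the shares of its 2 tested isoforms at this depth. Transcripts classed as intergenic took 12.211% and 11.201% of isoform counts in members against 8.504% and 8.957% in the others, and full matches to known transcripts 77.189% and 78.209% against 82.567% and 81.591%; these shares were not tested.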

How the data were processed

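For each sample the authors deposited a gene by barcode and an isoform by barcode table of whole-number counts, per the file headers and values; no source says if reads were collapsed by molecule. Cell Ranger is named in the submitters' processing notes without a version or a role; which aligner, build, annotation and barcode limits were used is not given in the sources used here, so no gene coordinates or sequences are printed. The tables list only genes with at least 1 count, and some genes every cell uses (ACTB, JUN, KRT8) are in none of the 6 tables, so a gene listed nowhere has no value here.

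All deposited barcodes were used. The members, the 29 gene lists and the tests were chosen with earlier results of these data known. Counts were summed per day 3 sample and population without FN1 and fitted in edgeR 4.0.16 (R 4.3.3; TMM, filterByExpr, quasi-likelihood F test, sample as block, Benjamini-Hochberg adjusted p under 0.05). The block stands because both sums of a sample come from 1 library; deviations of same-numbered sums correlated by 0.0558. On simulated counts for 9834 genes of this comparison the fit recovered 61.0% of changes of log2 1 and 89.0% of changes of log2 2, with 4 false calls. Changes were placed only in genes with higher counts, so recovery among genes with low counts was not measured. TMM factors were 1.07 and 1.05 for members and 0.945 and 0.947 for the others, and the coefficient of biological variation was 0.0684; chi-square per degree of freedom between replicates was 1.72 in members and 2.06 in the others. Isoform shares were tested with diffSpliceDGE for isoforms with at least 10 counts. On simulated isoform counts it recovered 43.3% of changes of log2 2, with 0 false calls. These changes too were placed only in isoforms with higher counts. Doublets were called with Scrublet in scanpy 1.11.5 and left out only as an alternative; DESeq2 1.42.0 was another.

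Genes named were up to 4 per list with the largest change past the threshold in 1 direction in both samples, defining markers of other cell types, and the 12 highest and 12 lowest at an average log2 CPM of at least 5; further list members were named as examples after their values were seen, and some genes of the rule are not described. A fold against 0 counts is a bound against 3 counts over both replicates. Changes without 1 replicate are ratios of the remaining sums with 1 CPM added to each, without a fit or a test.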

Additional observations from a re-analysis of the deposited data

How the results depend on the processing

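The count of 1337 genes (662 higher, 675 lower) was computed under 17 alternatives of scaling, test, filter, threshold and cells, the within-COL17A1 comparison and those leaving out 1 sum having been added after the data were seen. DESeq2 called 432 (206 and 226), all of them among the 1337, with 3572 adjusted p values not given. Scaling to totals alone called 1628, of which 1058 were higher. Without the replicate block 1664 passed, and the pairing changed 2 of 111 named genes, PTGDS and CCL20, which no longer passed. Against as many other barcodes of like total count 609 of 4376 genes passed (298 and 311), and within COL17A1-positive cells 712 (377 and 335); fewer genes and fewer cells entered both. Leaving out 1 of the 4 sums in a fit without the block, where the lone sum is assumed to vary like the other population, gave 719 to 1124 genes, of which 311, 431, 419 and 439 were higher and 408 to 685 lower, the fewest without the FN1-high sum of replicate 1. The remaining alternatives stayed within 1.5 times, from 1062 without barcodes with stromal counts to 1889 without barcodes with 1 to 4 FN1 counts. Of the named genes past the threshold 1 reversed: DCN went from log2 0.35 to -0.03 against barcodes of like total count and to -0.07 within COL17A1-positive cells; CDH1, which did not pass (log2 -0.48), stood at 0.04 without replicate 1 and 0.02 without the FN1-high sum of replicate 1. The cause was not tested. Folds of named genes moved by over 1.5 times for 44 of 94 against barcodes of like total count (41 of them smaller), 42 of 104 within COL17A1-positive cells (all smaller) and 10 of 109 without barcodes with stromal counts (all smaller). The share of FN1-high cells was 11.7% and 12.4% at 3 or more FN1 counts, 5.75% and 4.96% at 10 or more, and 10.9% and 11% with cells thinned to 2000 counts and a threshold of 2. By list, secretory pathway genes went from 2 to 8 higher with totals alone, ribosomal protein genes from 9 to 14 with totals and 0 with DESeq2, proteases from 16 to 6, TGF-beta genes from 12 to 6, fibronectin receptors from 11 to 6, actin genes from 18 to 11, immediate early genes from 5 to 1 and glycolysis genes from 5 to 0 higher with DESeq2, which also took epithelial identity genes from 10 to 5, actin genes from 4 to 0, inflammatory genes from 4 to 2 and NRF2 targets from 4 to 1 lower. Of the isoforms 1 passed, and 0 with at least 20 counts each (8 at an unadjusted p under 0.05). The planned fits for day 1 and over all days, and their versions without 1 replicate, were not run, since those samples held 0 FN1-high cells. With 2 samples per group and members of about 3000 counts each, genes under a few CPM could not be judged.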
